A study of Homo sapiens with 6 samples.

Results

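Base excision repair and single-strand break repair genes were followed in U2OS cells, an established human osteosarcoma line, after inhibition of poly(ADP-ribose) glycohydrolase (PARG). The 30 genes are a named list of DNA glycosylases, end-processing enzymes, gap-filling and ligation factors, direct-reversal enzymes and proteins recruited by poly(ADP-ribose). They were found by gene identifier among the 60708 identifiers of each count file, and all 30 were present and had enough counts for a test. The 3 control libraries came from wild-type cells given the solvent DMSO. The 3 treated libraries, called PARGi, came from the same line given 25 µM PDD00017273, a small-molecule PARG inhibitor, and treatment lasted 4 days. The study describes the triplicates as biological, and both groups were grown in the same serum-containing medium with antibiotics.

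In base excision repair, a glycosylase removes a damaged or misplaced base, an AP endonuclease cuts the backbone at the abasic (AP) site that remains, and a polymerase and a ligase refill and seal the gap. Single-strand breaks feed into the same late steps: PARP1 binds the break and builds poly(ADP-ribose), which draws in the scaffold XRCC1 and its partners, and PARG then degrades the polymer. The comparison addresses whether transcript levels of the repair genes differed after 4 days with that last enzyme inhibited.

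Depth ran from 60286931 to 80605145 counts per library and did not separate the groups (exact two-sided permutation test, p = 0.7, n = 3 each, smallest possible 0.1). Levels are given as CPM, counts scaled to library size with TMM factors. Mesenchymal and osteoblast-lineage markers were present in the DMSO libraries, from 4.68 CPM for ALPL to 4370 CPM for COL1A1, and COL1A2, SPARC and RUNX2 fell while ALPL rose by the test used below. The telomerase gene TERT, which this line does not use to keep its telomeres, had at most 0.0249 CPM in a library. Of 10 markers of epithelial, blood and endothelial cells, 9 had a mean under 5 CPM in both groups. Their sum was 29.3 to 30.3 CPM in DMSO and 20 to 23.6 CPM in PARGi, most of it KRT14, and CD3E was at 0 in 5 of 6 libraries. KRT14 was lower and CDH1 higher in PARGi by the test used below, and the part of these markers in the results was not tested.

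Most repair genes differed little between the groups. Of the 30 genes, 3 rose (HMCES, NUDT1 and TOP1) and 2 fell (UNG and LIG3) in PARGi, by edgeR's quasi-likelihood test at a Benjamini-Hochberg adjusted p under 0.05 over all 20409 genes tested. These 5 are 16.7% of the list. The same test called 29.8% of protein-coding genes and 24.3% of all tested genes, 13.2% as higher and 11% as lower. The largest change among the 5 was 15.6%. The median absolute log2 fold change was 0.060 in the list, 0.088 in protein-coding genes and 0.11 in all tested genes. These sets were not matched for level, and estimates from few counts scatter more, so these medians do not compare like with like. The signed median of the list was 0.034, with 17 of 30 genes above 0. It was 0.011 in protein-coding genes, with 7799 of 14504 above 0, and -0.0070 over all tested genes. The median of the list was -0.0061 without PARGi replicate 1, so its direction rested on 1 library. With upper-quartile scaling it was 0.0093, a setting that moves the median of all tested genes by -0.025. The 3 libraries of each group did not overlap for 11 of the 30 genes, and the same held for 38% of all tested genes.

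The precision was enough to bound most of the differences. For 25 of the 30 genes the whole 95% confidence interval lay within a 1.2-fold change in either direction. The same held for 9933 of 20409 tested genes and 9396 of 14504 protein-coding ones. Those sets were not matched to the list for level, on which the width of an interval depends. In the list, the exceptions were HMCES and NUDT1, whose upper limits passed it, and MUTYH, NEIL1 and CHD1L, whose intervals were wide. NTHL1, MGMT and NEIL3 lay inside only narrowly, with limits of -16.6%, -16.7% and 19.4%. The median standard error of the log2 fold change was 0.033 for the 20 genes above 20 CPM in DMSO and 0.087 for the 5 genes below 10 CPM. With RNA from a whole culture, a lower level in each cell and fewer cells that express a gene cannot be told apart. When the tested null was a change of up to 1.2-fold, 0 of the 30 genes passed, beside 465 of all tested genes (edgeR glmTreat). In the list it was also 0 at an unadjusted p under 0.05. All 30 estimates lay inside that null, so none could pass, and this result adds nothing to the estimates.

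**Figure D1:**
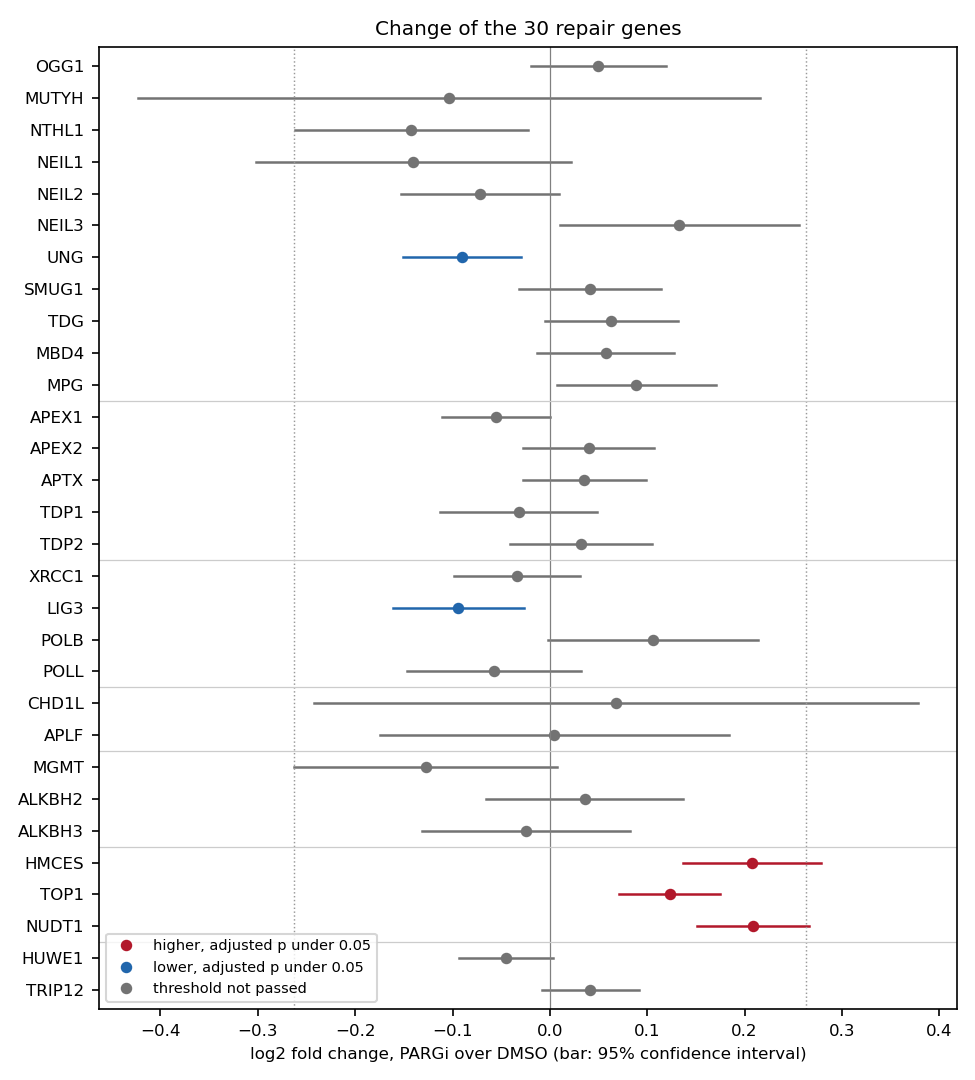
Log2 fold change of each repair gene in PARGi over DMSO (x axis) with its 95% confidence interval (bars), from 3 libraries per group, in blocks by role; dotted lines mark a 1.2-fold change. HMCES, NUDT1 and TOP1 lie to the right and UNG and LIG3 to the left, and MUTYH and CHD1L have the widest intervals.

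The genes that rose act at different points. HMCES encodes a protein that crosslinks to AP sites in single-stranded DNA and shields them. HMCES (ENSG00000183624.14, chromosome 3 from 129278828 to 129306186, GENCODE 29 on GRCh38) was at 76.0, 69.9 and 77.6 CPM in DMSO replicates 1 to 3 and at 83.5, 85.8 and 88.8 CPM in PARGi replicates 1 to 3. All 3 PARGi libraries lay above all 3 DMSO libraries, and DMSO replicate 2 was the lowest. The mean rose from 74.5 ± 4.11 to 86.0 ± 2.7 CPM (SD, n = 3 each), a log2 fold change of 0.21 (standard error, SE, 0.034, edgeR adjusted p = 6.99e-05). In percent this is a rise of 15.5%, with a 95% interval from 9.96% to 21.3%.

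NUDT1 encodes MTH1, which hydrolyses oxidised purine nucleotides such as 8-oxo-dGTP before they are built into DNA. NUDT1 (ENSG00000106268.16, chromosome 7 from 2242222 to 2251146) was at 82.0, 78.0 and 82.1 CPM in the DMSO libraries and at 94.4, 92.6 and 92.9 CPM in the PARGi libraries. The groups were well apart, with a gap between them wider than the range of either group. The mean rose from 80.7 ± 2.30 to 93.3 ± 0.994 CPM (SD, n = 3 each), a log2 fold change of 0.21 (SE 0.028, edgeR adjusted p = 4.68e-06). This was the smallest p in the list. By absolute size, 28.3% of all tested genes differed more than NUDT1 and 28.4% more than HMCES.

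TOP1 encodes DNA topoisomerase 1, which relaxes supercoils through a transient single-strand break and can be trapped on DNA as a protein-linked break. TOP1 (ENSG00000198900.7, chromosome 20 from 41028818 to 41124487) was at 191, 196 and 199 CPM in DMSO and at 211, 215 and 212 CPM in PARGi. Again no library of one group reached into the range of the other. The mean rose from 195 ± 3.98 to 213 ± 2.27 CPM (SD, n = 3 each), a log2 fold change of 0.12 (SE 0.025, edgeR adjusted p = 0.000711). Its processed pseudogene TOP1P1 had 78 counts over the 6 libraries beside 84936 for TOP1.

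**Figure D2:**
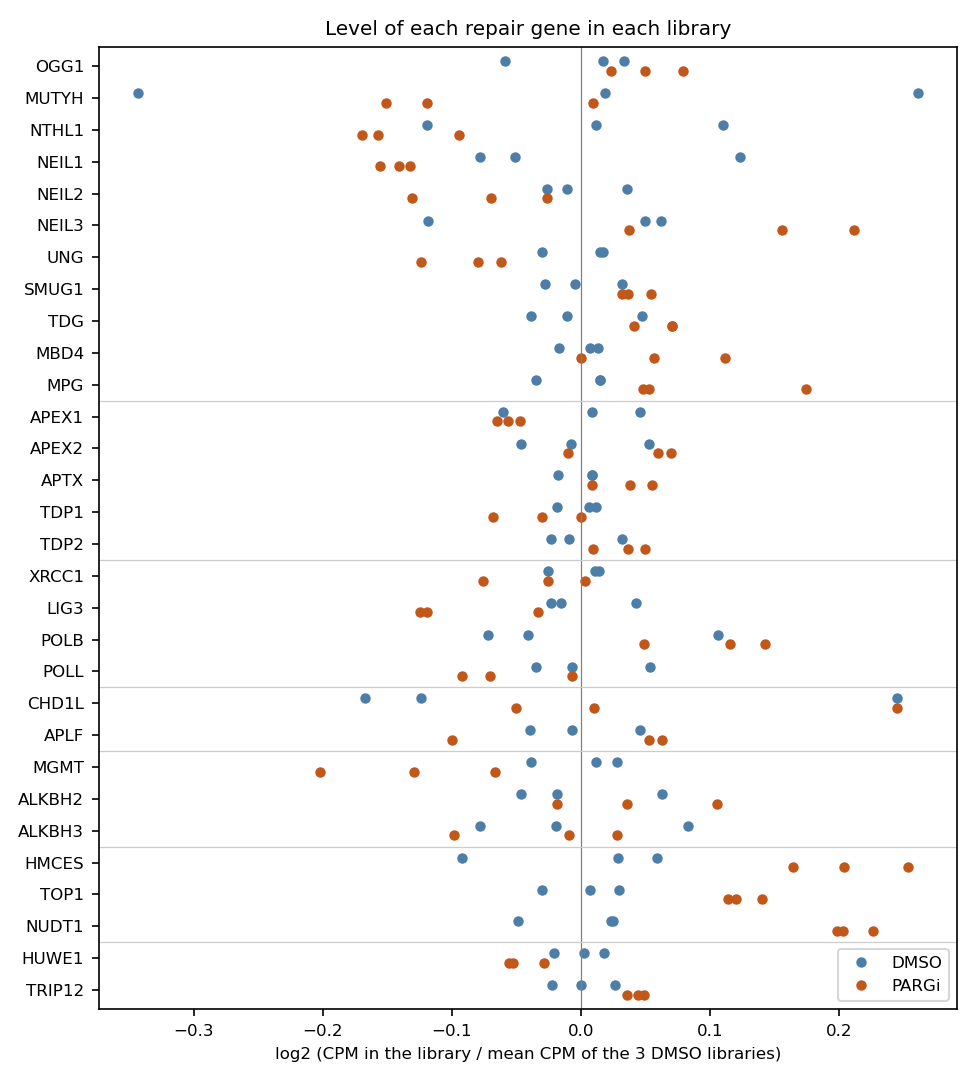
Level of each repair gene in each of the 6 libraries, as the log2 ratio of its CPM to the mean CPM of the 3 DMSO libraries (x axis), with one point per library. For HMCES, NUDT1 and TOP1 all PARGi points lie right of all DMSO points, and for UNG and LIG3 all lie left.

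The 11 DNA glycosylases, which start base excision, moved in no common direction: 1 fell, none rose, and 6 of 11 lay above 0 with a median of 0.041. Of all tested genes, 13.2% were called higher and 11% lower, and 9809 of 20409 lay above 0. The role groups of the list, here and below, hold too few genes for their counts to be set against such shares. UNG, the main uracil-DNA glycosylase, was the one that fell. UNG (ENSG00000076248.11, chromosome 12 from 109097574 to 109110992) was at 67.6, 65.5 and 67.7 CPM in DMSO and at 64.1, 63.3 and 61.4 CPM in PARGi. Every PARGi value was below every DMSO value, with 64.1 and 65.5 CPM the closest. The mean went from 66.9 ± 1.21 to 62.9 ± 1.42 CPM (SD, n = 3 each), a log2 fold change of -0.090 (SE 0.029, edgeR adjusted p = 0.0256). That call was lost with an offset for each gene's GC content and exonic length, where the log2 fold change was -0.042 (edgeR adjusted p = 0.282), and with DESeq2, at -0.087 (adjusted p = 0.0625). The offset moved the median of all tested genes by 0.022. With the replicate number as a block beside the offset (-0.0422, edgeR adjusted p = 0.316) and with no filter on low counts (-0.0855, 0.0619) the call was lost too. It was also lost without DMSO replicate 1 (-0.085, adjusted p = 0.0778), PARGi replicate 2 (-0.095, 0.0655) or PARGi replicate 3 (-0.071, 0.161).

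The other enzymes that act on uracil or thymine mismatches had values on the other side of 0. SMUG1, a second uracil glycosylase, was at 30.6, 31.1 and 31.9 CPM in DMSO and 31.9, 32.0 and 32.4 CPM in PARGi (log2 fold change 0.041, edgeR adjusted p = 0.441), the groups touching but not overlapping. TDG and MBD4, which remove thymine or uracil opposite guanine, had log2 fold changes of 0.063 and 0.057 (edgeR adjusted p = 0.179 and 0.244). None of the 3 passed the threshold, and whether their differences were unlike that of UNG was not tested.

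Among the enzymes for oxidised bases, OGG1 excises 8-oxoguanine paired with cytosine and MUTYH removes the adenine misplaced opposite it. OGG1 (ENSG00000114026.22) was at 43.2, 41.0 and 43.7 CPM in DMSO and at 45.1, 43.4 and 44.2 CPM in PARGi. The groups overlapped, and its log2 fold change of 0.050 (95% interval -0.020 to 0.12, edgeR adjusted p = 0.316) did not pass. MUTYH had few counts, 76 to 135 per library, and means of 1.51 ± 0.311 CPM with DMSO and 1.42 ± 0.0847 CPM with the inhibitor (SD, n = 3 each). At that depth its interval, from -25.4% to 16.2%, could hold a change of the size seen for HMCES or NUDT1. NTHL1 and the NEIL enzymes excise oxidised pyrimidines and related lesions. NTHL1 had a log2 fold change of -0.14 (edgeR adjusted p = 0.0783), NEIL1 -0.14 (0.212), NEIL2 -0.072 (0.204) and NEIL3 0.13 (0.111). NEIL3, which is tied to replicating cells, thus had the opposite sign to the others, and none of the 4 was called. NTHL1 passed without DMSO replicate 2 (-0.20, adjusted p = 0.0133) and with upper-quartile scaling (-0.17, 0.0335).

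MPG, the alkyladenine glycosylase, was at 28.9, 29.9 and 29.9 CPM in DMSO and at 33.4, 30.6 and 30.7 CPM in PARGi. The groups did not overlap, but PARGi replicate 1 stood above the other PARGi libraries. The log2 fold change of 0.089 (edgeR adjusted p = 0.108) did not pass, although it did with the GC and length offset, at 0.13 (adjusted p = 0.00805). That offset moved the median of all tested genes by 0.022.

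The AP endonucleases and end-processing enzymes gave 0 calls among 5 genes (edgeR, 1 of the 5 at an unadjusted p under 0.05, and 0 with DESeq2 or limma-voom). Over all tested genes edgeR called 24.3%. APEX1, the major AP endonuclease, was at 351, 326 and 342 CPM in DMSO and at 327, 325 and 329 CPM in PARGi. Its log2 fold change was -0.055, with a 95% interval from -0.11 to -0.00020 and an edgeR adjusted p of 0.141. Only DMSO replicate 2 lay within the PARGi range. The sign was not stable: without that library the log2 fold change was -0.084 (adjusted p = 0.0135), with upper-quartile scaling it was -0.080 (0.0282), and with the GC and length offset it was 0.010 (0.8). Upper-quartile scaling moved the median of all tested genes by -0.025 and the offset moved it by 0.022. APEX2, the second AP endonuclease, had a log2 fold change of 0.040. APTX, which removes AMP left on a break by a failed ligation, had 0.035. TDP1 and TDP2, which release trapped topoisomerases from DNA ends, had -0.032 and 0.032. The edgeR adjusted p of these last 4 genes ran from 0.421 for APEX2 to 0.610 for TDP1.

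In the scaffold, gap-filling and ligation group, 1 of 4 genes fell and none rose, at a median of -0.046. Of all tested genes, 11% were called lower and 13.2% higher. LIG3 encodes DNA ligase 3, the partner of XRCC1 that seals the nick. LIG3 (ENSG00000005156.12, chromosome 17 from 34980494 to 35009743) was at 55.7, 58.3 and 56.0 CPM in DMSO and at 55.3, 51.9 and 52.1 CPM in PARGi. PARGi replicate 1 lay just under the lowest DMSO library, and the other 2 were well below it. The mean went from 56.6 ± 1.43 to 53.1 ± 1.92 CPM (SD, n = 3 each), a log2 fold change of -0.094 (SE 0.032, edgeR adjusted p = 0.0364). On the other strand, RFFL covers 29.1% of its exonic bases, and the counts were read as strand-specific. The call was lost with DESeq2 (-0.090, adjusted p = 0.0934), with the GC and length offset (-0.080, 0.0532) and without DMSO replicate 2 (-0.073, 0.136), PARGi replicate 2 (-0.077, 0.175) or PARGi replicate 3 (-0.080, 0.167). With the replicate number as a block it was lost as well (log2 fold change -0.094, adjusted p = 0.0568). The same held with that block and the offset together (-0.0797, edgeR adjusted p = 0.077) and with no filter on low counts (-0.0892, 0.0612).

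XRCC1, the scaffold that binds poly(ADP-ribose) and holds LIG3 and POLB at the break, did not share the call of LIG3. XRCC1 (ENSG00000073050.12, chromosome 19 from 43543040 to 43580473) was at 50.0, 51.4 and 51.3 CPM in DMSO and at 51.0, 50.0 and 48.3 CPM in PARGi. The groups overlapped, and the log2 fold change was -0.034 with a 95% interval from -0.099 to 0.031 (edgeR adjusted p = 0.482). POLB, the gap-filling polymerase of base excision repair, was at 15.5, 13.7 and 14.0 CPM in DMSO and at 14.9, 15.6 and 15.9 CPM in PARGi. Its log2 fold change of 0.11 (edgeR adjusted p = 0.151) passed only when DMSO replicate 1, the highest control, was left out (0.16, adjusted p = 0.0428). POLL, a related polymerase, had -0.057 (edgeR adjusted p = 0.376).

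Neither poly(ADP-ribose)-binding factor passed the threshold (edgeR, 0 of 2, 0 at an unadjusted p under 0.05, and 0 with DESeq2 or limma-voom). The share over all tested genes was 24.3% (edgeR). CHD1L, the chromatin remodeller ALC1 that poly(ADP-ribose) activates, was at 1.73, 1.30 and 1.34 CPM in DMSO and at 1.73, 1.41 and 1.47 CPM in PARGi. These are 83 to 118 counts per library, and the interval of its log2 fold change of 0.068 ran from -0.24 to 0.38 (edgeR adjusted p = 0.797). APLF, a histone chaperone with poly(ADP-ribose)-binding zinc fingers, averaged 4.05 ± 0.118 CPM with DMSO and 4.07 ± 0.253 CPM with the inhibitor (SD, n = 3 each, log2 fold change 0.0046, edgeR adjusted p = 0.978). In GENCODE 29, 22.8% of the exonic bases of APLF are shared with PROKR1 on the same strand, so its count is uncertain.

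Direct reversal enzymes, which undo alkylation without excision, gave 0 calls among 3 genes (edgeR, 0 at an unadjusted p under 0.05, and 0 with DESeq2 or limma-voom). Among all tested genes 24.3% were called (edgeR). MGMT, which takes the alkyl group off guanine onto itself, was at 7.64, 7.73 and 7.38 CPM in DMSO and at 6.59, 6.93 and 7.24 CPM in PARGi. The groups did not overlap, yet the log2 fold change of -0.13 (95% interval -0.26 to 0.0074, edgeR adjusted p = 0.169) did not pass. ALKBH2 and ALKBH3, oxidative demethylases of DNA bases, had 0.036 and -0.024 (edgeR adjusted p = 0.655 and 0.787).

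The ubiquitin ligases were abundant, and neither passed the threshold (edgeR, 0 of 2, 0 at an unadjusted p under 0.05, and 0 with DESeq2 or limma-voom). Over all tested genes 24.3% passed (edgeR). HUWE1, which targets base excision enzymes and many other proteins for degradation, was at 547, 556 and 562 CPM in DMSO and at 535, 544 and 534 CPM in PARGi, a log2 fold change of -0.045 (edgeR adjusted p = 0.171). TRIP12, which ubiquitinates PARP1, was at 316, 327 and 321 CPM in DMSO and at 329, 332 and 331 CPM in PARGi, a log2 fold change of 0.042 (edgeR adjusted p = 0.225). For both, the groups did not overlap, but the differences were -3.10% and 2.94%. HUWE1 passed with upper-quartile scaling (-0.070, adjusted p = 0.0354), which moves the median of all tested genes by -0.025.

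**Figure D3:**
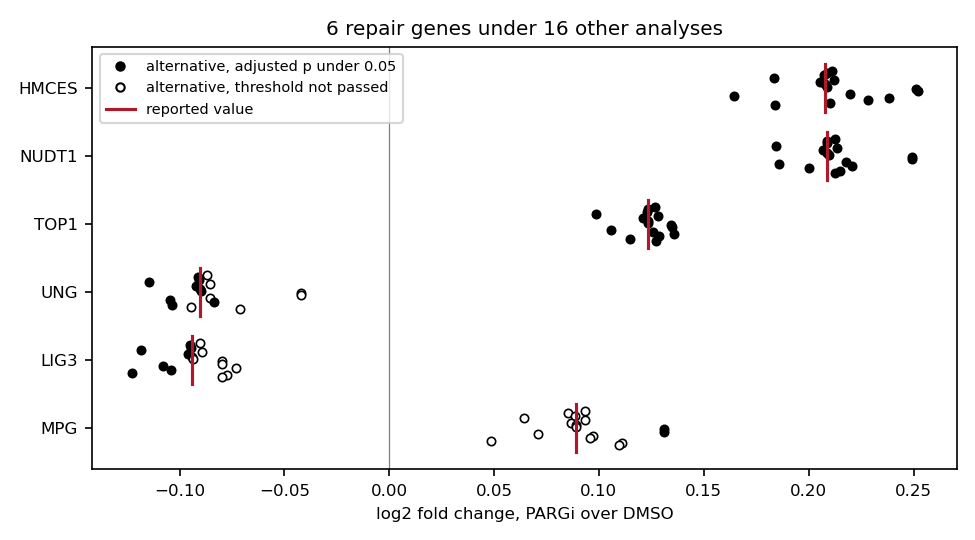
Log2 fold change of 6 repair genes under 16 other analyses (points) beside the reported value (red line), with filled points where the adjusted p was under 0.05. All points of HMCES, NUDT1 and TOP1 are filled, while UNG, LIG3 and MPG have points of both kinds.

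Transcript levels can be ranked between genes only per length, and CPM was therefore divided by the exonic length in kb (GENCODE 29). In DMSO, APEX1 was highest at 180 CPM per kb, followed by TOP1 at 52.2, NUDT1 at 38.6, HUWE1 at 31.9 and HMCES at 26.8. In this order HMCES overlapped with UNG (26.1) and UNG with TRIP12 (25.5) over the DMSO libraries, while HUWE1 lay above HMCES and MPG (17.8) below TRIP12 without overlap. The cause of the low counts of MUTYH and CHD1L was not tested, and the authors' annotation release is not given in the sources used here, so their place in this order is uncertain. The lower end held MGMT at 2.13, NEIL1 at 0.790, APLF at 0.568, CHD1L at 0.432 and MUTYH at 0.387 CPM per kb, and the last pair overlapped. XRCC1 stood at 14.7 and its partners LIG3 and POLB at 4.38 and 3.51 CPM per kb. Exonic length sums all annotated exons, 12.9 kb for LIG3, whether or not these cells use them. In PARGi, HMCES stood at 30.9 CPM per kb, beside 31.0 for HUWE1.

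**Figure D4:**
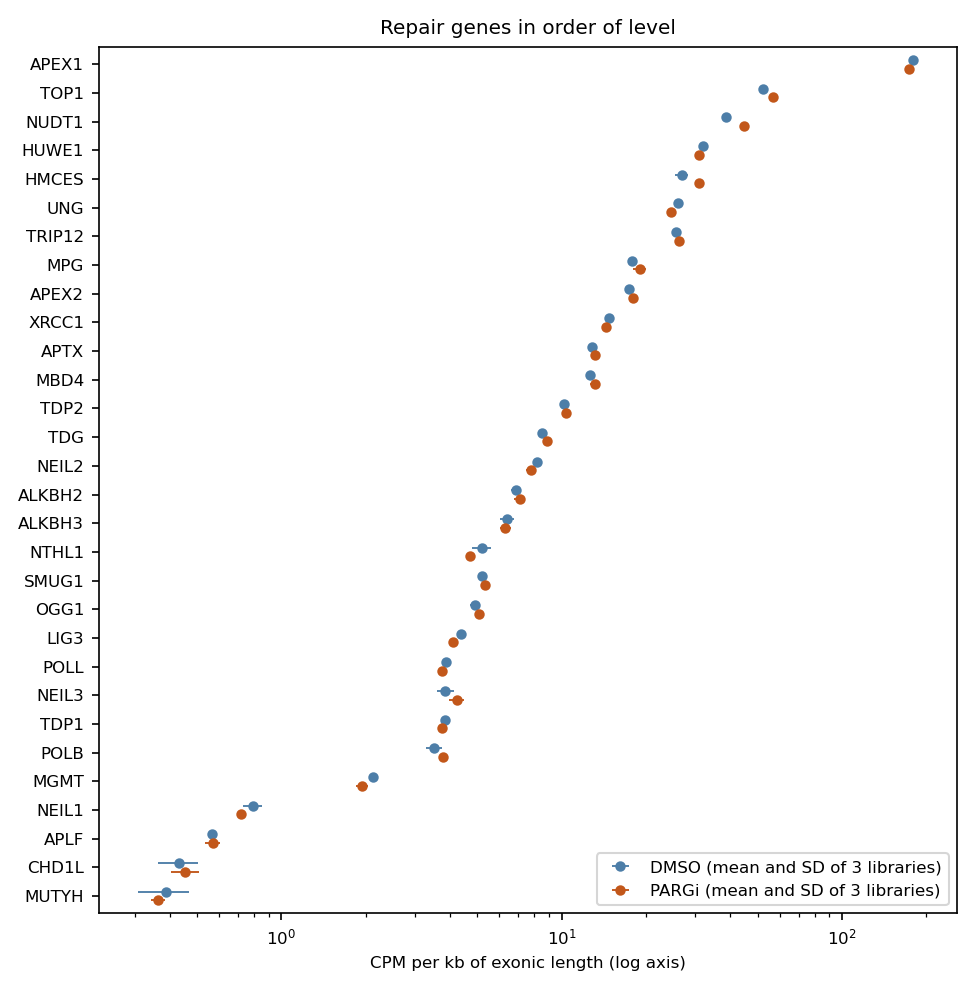
Level of each repair gene in CPM per kb of exonic length (x axis, log scale), as the mean and SD of the 3 DMSO and the 3 PARGi libraries, ordered by the DMSO mean. APEX1 is highest at 180 in DMSO, and MUTYH, CHD1L, APLF and NEIL1 lie below 1.

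The promoters of the 5 called genes are printed to show what the genes that rose and those that fell have in common upstream. Each is the 250 bases before the most upstream RefSeq start (GRCh38.p14), 5′ to 3′ on the gene's own strand, which is the plus strand for all 5. They lie at chr3:129278582-129278831, chr7:2241976-2242225, chr20:41028572-41028821, chr12:109097347-109097596 and chr17:34980262-34980511. Capitals mark matches, on either strand, to the GC box GGGCGG, the CCAAT box, the ETS core CCGGAA, the E-box CACGTG and the cyclic AMP response core TGACGT.
HMCES: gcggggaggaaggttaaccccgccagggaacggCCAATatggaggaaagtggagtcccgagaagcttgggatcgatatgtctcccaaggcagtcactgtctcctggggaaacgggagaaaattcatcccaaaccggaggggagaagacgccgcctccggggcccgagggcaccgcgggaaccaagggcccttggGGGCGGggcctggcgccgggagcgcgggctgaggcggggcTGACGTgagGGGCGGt
NUDT1: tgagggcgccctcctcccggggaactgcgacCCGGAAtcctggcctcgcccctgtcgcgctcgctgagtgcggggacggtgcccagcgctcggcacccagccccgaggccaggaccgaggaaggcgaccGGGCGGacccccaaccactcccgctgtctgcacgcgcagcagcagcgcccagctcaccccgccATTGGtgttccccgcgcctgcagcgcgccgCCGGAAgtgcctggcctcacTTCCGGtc
TOP1: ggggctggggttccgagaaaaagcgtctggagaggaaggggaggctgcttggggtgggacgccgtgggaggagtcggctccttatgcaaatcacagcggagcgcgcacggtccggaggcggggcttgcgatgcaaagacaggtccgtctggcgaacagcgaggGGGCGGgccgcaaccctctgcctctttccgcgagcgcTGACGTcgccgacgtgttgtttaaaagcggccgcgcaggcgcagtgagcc
UNG: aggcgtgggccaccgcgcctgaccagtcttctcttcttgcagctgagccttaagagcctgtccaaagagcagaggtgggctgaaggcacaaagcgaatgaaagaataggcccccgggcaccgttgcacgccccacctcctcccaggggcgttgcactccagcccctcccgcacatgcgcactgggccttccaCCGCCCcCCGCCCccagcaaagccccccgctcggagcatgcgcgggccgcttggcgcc
LIG3: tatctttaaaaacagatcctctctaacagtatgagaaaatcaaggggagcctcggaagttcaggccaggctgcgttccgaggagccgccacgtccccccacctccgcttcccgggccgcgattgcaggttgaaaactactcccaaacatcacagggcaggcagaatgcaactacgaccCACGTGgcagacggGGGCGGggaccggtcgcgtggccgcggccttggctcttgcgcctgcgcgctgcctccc
All 5 windows hold at least 1 GC box. HMCES and TOP1 each hold 1 cyclic AMP response core, NUDT1 holds 3 ETS cores and LIG3 holds the E-box. No motif here was present in the 3 genes that rose and absent from both genes that fell.

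Promoters were matched for 27 of the 30 genes. Of these 27, 19 held a GC box, beside 42.2% of 27305 promoters of the same length. A CCAAT box was in 16 (33.0% of all promoters), an ETS core in 8 (14.8%), an E-box in 5 (6.46%) and the core TGACGT in 4 (7.42%). The E2F patterns TTTCGCGC or TTTGGCGC or TTTCCCGC or TTTGCCGC were in 0 of 27 and in 2.78% of all promoters. The 27305 promoters outnumber the 20409 genes tested, so they include genes without enough counts for a test, unlike the 27. As the sets were not matched for expression, these shares cannot be read as an enrichment. A match is a string of letters and shows no binding.

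Several repair genes share a promoter region with a neighbour. For 8 of the 30, another protein-coding gene starts within 1000 bases upstream on the opposite strand, which is so for 9.01% of tested protein-coding genes. The partner rose in 2 of these pairs without its repair gene passing: DNAJA1, a chaperone gene 43 bases from APTX, had a log2 fold change of 0.13 (edgeR adjusted p = 0.000308), and FBXO48, 303 bases from APLF, had 0.24 (0.0244). By the same test 13.2% of all tested genes and 2547 of 14504 protein-coding ones were called higher. The 8 pairs are too few to set against those shares. MRM2, which starts 24 bases from NUDT1, was at only 0.494 CPM in DMSO. Its log2 fold change of 0.16 (SE 0.25, edgeR adjusted p = 0.703) did not pass. With that SE, neither no change nor a change of the size seen for NUDT1 could be told apart from it. UNG and ALKBH2 lie head to head on chromosome 12 with 3.94 kb between them. HMCES and MBD4 lie 125 kb apart on chromosome 3.

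Other genes of the pathway were counted in the same way. A list of 42 further genes covered poly(ADP-ribose) synthesis, long-patch synthesis, the nucleotide pool, mitochondrial DNA maintenance and associated factors. Of these, 15 rose and 3 fell (42.9%, beside 24.3% of all tested genes and 29.8% of protein-coding ones). Their median log2 fold change was 0.051, beside -0.0070 over all tested genes and 0.011 over protein-coding genes. Several members also serve DNA replication. The 42 genes were chosen with earlier results of these data known, and the smaller groups below were drawn after the values were seen.

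In long-patch repair, where a strand is displaced and several bases are resynthesised, 7 of 16 genes rose and none fell, beside 13.2% of all tested genes called higher and 11% called lower. FEN1, the flap endonuclease, rose from 199 ± 2.75 to 218 ± 1.9 CPM (SD, n = 3 each, log2 fold change 0.13, edgeR adjusted p = 0.000215). POLD1, the catalytic subunit of polymerase delta, rose from 131 ± 3.43 to 146 ± 2.66 CPM (log2 fold change 0.15, edgeR adjusted p = 0.000131). The clamp-loader subunits RFC3 and RFC2 rose with log2 fold changes of 0.17 and 0.12 (edgeR adjusted p = 0.000112 and 0.00151). The sliding clamp PCNA, named after its values were seen, rose with 0.074 (edgeR adjusted p = 0.0278), and LIG1, the ligase of this branch, had 0.046 (0.213).

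PARP1, which makes most of the polymer at breaks, was at 420, 415 and 433 CPM in DMSO and at 437, 435 and 418 CPM in PARGi. Its groups overlapped, and the 95% interval of the difference ran from -1.91% to 5.53%.

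Nucleotide pool enzymes went both ways. SAMHD1, a dNTP hydrolase, rose from 42.4 ± 0.513 to 51.0 ± 1.25 CPM (SD, n = 3 each, log2 fold change 0.26, edgeR adjusted p = 1.03e-06). DUT, the dUTPase that keeps uracil out of DNA, fell from 94.4 ± 2.07 to 87.3 ± 1.54 CPM (SD, n = 3 each, log2 fold change -0.11, edgeR adjusted p = 0.00343). DUT was chosen after its values were seen. Of 5 genes for mitochondrial DNA maintenance, 4 rose (13.2% of all tested genes were called higher), with the smallest p for the nuclease and helicase DNA2 (log2 fold change 0.19, edgeR adjusted p = 0.000173), which also works in the nucleus. RECQL, a helicase linked to single-strand break repair, rose from 133 ± 1.21 to 148 ± 2.42 CPM (SD, n = 3 each, log2 fold change 0.16, edgeR adjusted p = 5.26e-05).

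**Figure D5:**
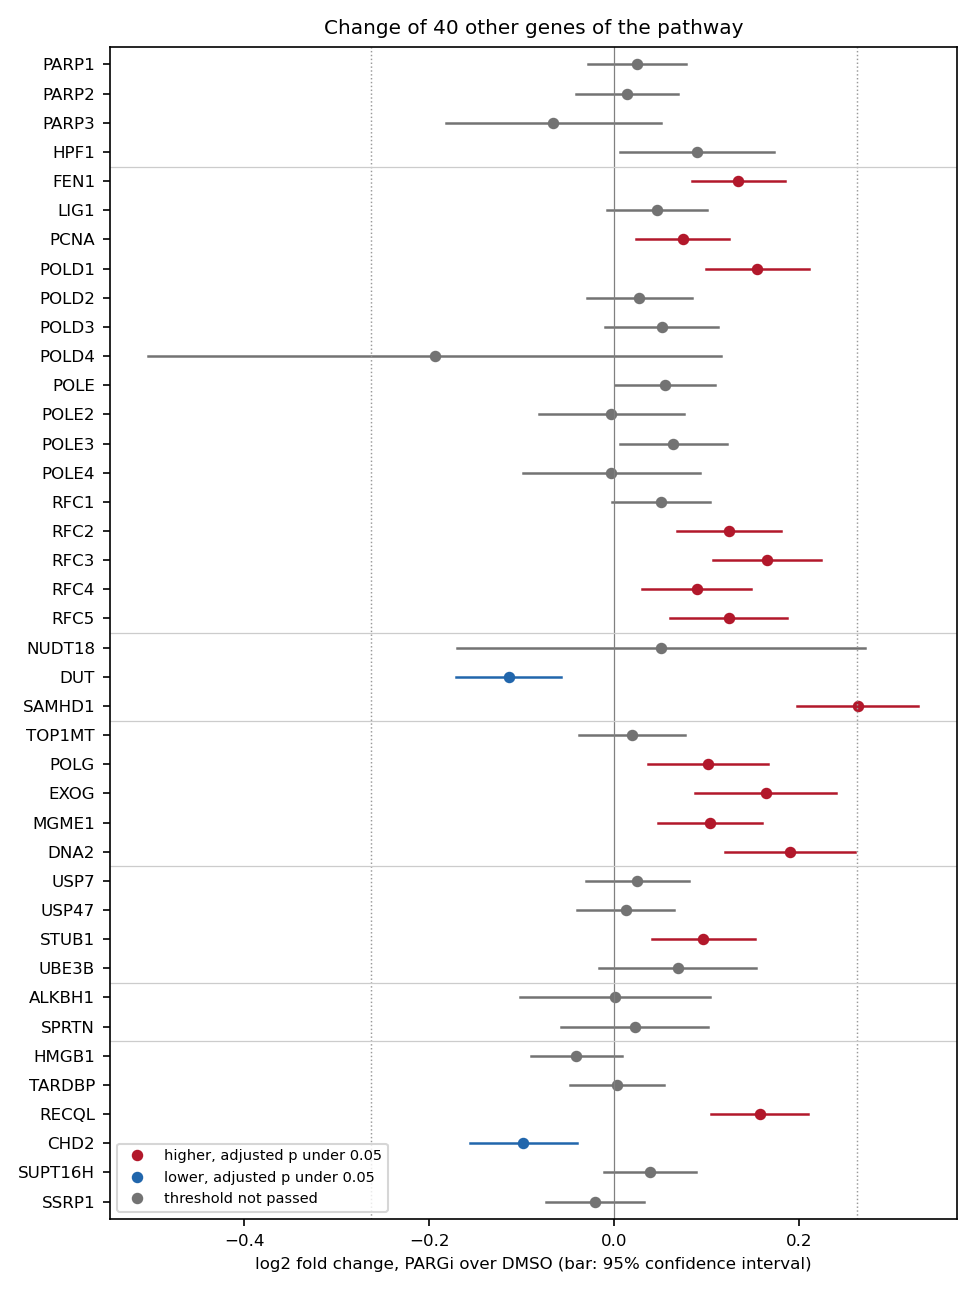
Log2 fold change in PARGi over DMSO (x axis) with its 95% confidence interval (bars) for 40 of the 42 other genes of the pathway, 3 libraries per group; dotted lines mark a 1.2-fold change. DUT and CHD2 fell, SAMHD1 has the largest rise at 0.26, and POLD4 and NUDT18 have wide intervals.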

How the data were processed

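Libraries were made with the TruSeq Stranded Total RNA kit, per the labels' protocols. Per the submitters' processing notes, cutadapt 1.18, STAR 2.7.3a, SAMtools 1.9, DESeq2 and deepTools were used with the build hg38, and the annotation release is not given in the sources used here. Each library has 1 deposited file of unnormalised read counts by Ensembl gene. Strand was checked on 359 genes that lie at least 90% inside the exons of an abundant gene (10000 counts or more) on the other strand. Of these, 322 had counts, and the median total over all 359 was 16, so the counts were read as strand-specific. Symbols were found for 60463 of 60708 identifiers, and GENCODE 29 gave positions, exon lengths and base composition (58396 identifiers found, all 30 repair genes included). Promoter sequences are from RefSeq.

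Low counts were removed with filterByExpr, libraries were scaled by TMM, and treatment was tested with the two-sided quasi-likelihood test of edgeR 4.0.16 in R 4.3.3, adjusted over 20409 genes. Standard errors were derived from the F statistic. Intervals cover the spread between these libraries. Alternatives were DESeq2 1.42.0, limma-voom (limma 3.58.1), other scalings and filters, robust dispersions, a replicate block, a loess offset on GC content and exonic length (span 0.3), a test against a 1.2-fold change and each library left out. No label ties replicate numbers to a shared day or culture. The method was tested on simulated data made for this comparison. It recovered 50.7% of 67 genes changed 1.2-fold, 79.1% of 67 changed 1.5-fold and 84.8% of 66 changed 2-fold, among 20117 genes. Far fewer genes were changed there than the 4951 called in the data, and all genes had the same dispersion. The rates also pool genes of all levels, so they do not give the power for the repair genes. The 30 genes, the role groups and the 42 further genes were chosen with earlier results of these data known. All 30 genes are named, called genes and 7 core genes with every library, and of the 42 up to 8 called ones with the smallest p plus PARP1 and FEN1, apart from genes that are not reported here. Figures were drawn with matplotlib 3.10.9.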

Additional observations from a re-analysis of the deposited data

How the results depend on the processing

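HMCES, NUDT1 and TOP1 stayed higher and past the threshold in all 16 alternatives that give a fold change, with log2 fold changes of 0.16 to 0.25, 0.18 to 0.25 and 0.099 to 0.14. UNG passed in 9 of the 16 (-0.11 to -0.042) and LIG3 in 8 (-0.12 to -0.073). Of 624 gene values in the alternatives (39 genes), 588 kept their direction and side of the threshold, 15 lost the call, 8 gained one and 13 changed sign.

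The number of repair genes called, 5 in the reported test, was 3 with DESeq2 and with no filter on low counts (0 lower in both). It was 8 with upper-quartile scaling (5 lower) and 4 with the GC and length offset, with or without the replicate block (0 lower in both). Over all genes, 4951 passed in the reported test, 3800 with DESeq2, 4824 with no filter and 4947 with upper-quartile scaling. The offset gave 5836 over all genes, and 5355 with the block added. Against a 1.2-fold change the number of repair genes was 0 in either direction, but all 30 estimates lay inside that null. There, 465 of all genes and 0 of the 42 further genes passed. With single libraries left out the number of repair genes ran from 3 to 6, with 0 to 3 lower. It was 3, with 0 lower, without PARGi replicate 2 or 3, and 1 gene was lower without DMSO replicate 1. Over all genes, 3607 and 3624 passed without PARGi replicate 2 or 3, and up to 4848 with another library left out (DMSO replicate 3).

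The median log2 fold change of the 30 genes, 0.034, was 0.0093 with upper-quartile scaling, 0.048 with the GC and length offset and 0.048 with that offset and the replicate block. Upper-quartile scaling moved the median of all tested genes by -0.025, and the offset without the block moved it by 0.022. With single libraries left out the median of the 30 genes ran from -0.0061 (without PARGi replicate 1) to 0.030 (without PARGi replicate 3).

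With the replicate number as a block, 4 repair genes and 4553 of all genes passed, against 4951, and 1 repair gene was lower. No pairing by number was seen: the correlation of same-numbered deviations over genes was -0.020, -0.026 and -0.083. For differently numbered libraries it ran from -0.056 to 0.079. Such small values cannot show whether libraries shared a day or culture.

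None of the values of opposite sign was past the threshold. APEX1 was 0.010 with the GC and length offset and 0.011 with the block added. ALKBH3 was 0.027 and 0.028 in the same fits, 0.020 without DMSO replicate 2 and 0.0094 without PARGi replicate 2, and its lowest was -0.064 without DMSO replicate 3. APLF was -0.020 with upper-quartile scaling, -0.013 without DMSO replicate 2, -0.017 without PARGi replicate 1 and -0.027 without PARGi replicate 2, up to 0.060 without PARGi replicate 3. CHD1L was -0.0018 without DMSO replicate 2 and -0.018 without PARGi replicate 1, up to 0.20 without DMSO replicate 1. MUTYH was 0.057 without DMSO replicate 3 and -0.24 without DMSO replicate 2. The causes of these shifts were not tested. At 76 to 135 counts per library, MUTYH limits what can be seen to large changes.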
